A study of Mus musculus with 6 samples.

Results

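The integrin and laminin subunit genes are the genes that encode the alpha and beta chains of integrin receptors and the alpha, beta and gamma chains of laminins. They were chosen by symbol alone, as every symbol of the form Itga, Itgb, Lama, Lamb or Lamc followed by the letters or number of a subunit. The rule found 37 of 24063 symbols, which are 18 integrin alpha subunits, 8 integrin beta subunits and 11 laminin chains. RNA-seq libraries came from mouse stem-like medulloblastoma cells of the cerebellum, 2 libraries for each of 3 guide RNAs. The groups were sgMiat-6 and sgMiat-96, whose guides bear the name of Miat, a long noncoding RNA, and whose labels give its knockdown, and sgGal4-4, which carries a guide named for the yeast protein Gal4 and is labelled WT. All 3 groups have the genotype Math1-Cre; SmoM2, in which Cre made under a granule neuron progenitor promoter turns on an active Smoothened, so the control cells carry the tumour-driving allele as well. The labels give neither the age of the animals, nor the enzyme used with the guides, nor whether the cells were clones or pools. They also do not say whether replicates were separate cultures, so p-values measure only the spread between these samples, which may be technical.

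An integrin is a heterodimer of an alpha and a beta chain that spans the plasma membrane, binds extracellular matrix outside the cell and couples to actin through talin and kindlin inside it. A laminin is a trimer of an alpha, a beta and a gamma chain, and it forms the sheet of the basement membrane together with nidogen, collagen IV and perlecan. In the developing cerebellum, granule neuron progenitors lie under the laminin-rich basement membrane of the pia, and integrins of the beta1 class are known to support their proliferation.

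The libraries held between 18438891 and 19650274 counts in the rows used. Miat had 0 counts in each of the 4 Miat libraries, against 140 and 139 counts in the sgGal4-4 libraries. Of the neural stem cell markers, Sox2 was at 217 to 286 CPM in the Miat libraries and at 213 and 222 CPM in the controls, in counts scaled by TMM factors to a common library size (CPM). The 6 neural stem cell markers summed to 4319 to 5064 CPM in Miat libraries, against 2819 to 2931 CPM in controls, with Vim called higher, Msi1 called lower, Fut4 at 0 and Prom1 at most at 0.0510 CPM. Of 8 granule neuron markers, 4 were called higher and 1 lower, Atoh1, which defines the progenitors, was at 0, and the sum was 212 to 234 CPM in Miat libraries against 133 to 142 CPM in controls. The 6 oligodendrocyte lineage markers, nearly all Olig1 and Olig2, summed to 3071 to 3213 CPM with sgMiat-6 and to 4717 to 4805 CPM with sgMiat-96, against 1910 to 1965 CPM with sgGal4-4, and Sox10 was at most at 0.152 CPM. The summed level of 9 astrocyte markers was 1056 to 1111 CPM in sgMiat-6 libraries and 1120 to 1181 CPM in sgMiat-96 libraries, against 3323 to 3434 CPM with sgGal4-4. Of 8 tested, 7 were called lower and 1 higher. The latter was S100b, at 47.9 to 67.5 CPM in Miat libraries against 18.3 and 19.1 CPM in controls. Aldoc was at 503 and 460 CPM with sgMiat-96, against 506 and 486 CPM with sgGal4-4. The 7 mural markers summed to 35.3 to 41.0 CPM in sgMiat-6 libraries and 34.2 to 42.4 CPM in sgMiat-96 libraries, against 122 to 142 CPM with sgGal4-4, and nearly all of it was Cspg4, while Kcnj8 and Abcc9 were at 0. The 8 endothelial markers summed to at most 13.9 CPM in any library, with Cldn5 at 0, and the 8 microglial ones to at most 6.23 CPM, with Cx3cr1 and Tyrobp at 0. The 6 meningeal fibroblast markers summed to at most 10.2 CPM, of which Pdgfra was at 3.88 to 8.68 CPM in Miat libraries against at most 0.0516 CPM in controls, and Col1a1 at 0.225 to 0.981 CPM in Miat libraries against 7.6 and 9.74 CPM in controls. The median transcript length, weighted by counts, was 2722 and 2530 bases with sgMiat-6 and 2115 and 2293 bases with sgMiat-96, against 3034 and 2979 bases with sgGal4-4, and members are long, with a median of 5194.5 bases against 2843.5 for all genes tested. The part of these differences in the results was not tested, apart from the refits with the trend over length removed.

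The cells of both Miat guides held far less RNA of the laminin receptor subunit Itga6, of the fibronectin receptor subunit Itga5 and of the laminin gamma chain Lamc1 than control cells, and more RNA of the subunits Itga4, Itga7 and Itga8. The data are from bulk RNA, in which fewer cells of a type and less RNA per cell cannot be told apart. Of the 37 members, 25 had enough counts to be tested, and 12 did not, with at most 13 counts in a library. In edgeR's quasi-likelihood test with Benjamini-Hochberg adjustment over 13220 genes, called at an adjusted p under 0.05, 8 members rose and 13 fell with both Miat guides against sgGal4-4. This is read against a background of 66.5% of all genes tested called in this comparison, 33.1% higher and 33.4% lower. Called and at least 2-fold apart were 5 members that rose and 10 that fell, against 25.1% of all genes, 11.4% higher and 13.7% lower. Among receptor subunits, 5 rose and 9 fell of 18 tested, with a median log2 fold change of -0.55, and with the length trend removed 6 were called higher, Itgav now among them, and 7 lower. Among laminin chains, 3 rose and 4 fell of 7 tested, with a median of -0.62, which is the same with chains at 0 counts in a group put at their bounds, and the median of all genes was 0.00. Without the length trend, these medians were -0.23 for receptors, -0.24 for laminins and 0.03 for all genes, and with scaling by total counts they were -0.68, -0.75 and -0.13. Lama2, one of the 3 laminin chains that rose, had 0 counts in the control. It passed the filter only through the Miat libraries, so its call is not used as support. The counts of members here and below still include Lama2 and other members that passed through the group where they are high. All 4 Miat libraries lay above both controls in 8 of the tested members and below both in 12, and they overlapped in 5, where 67.0% of all genes did not overlap, 34.0% above and 33.0% below.

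**Figure D1:**
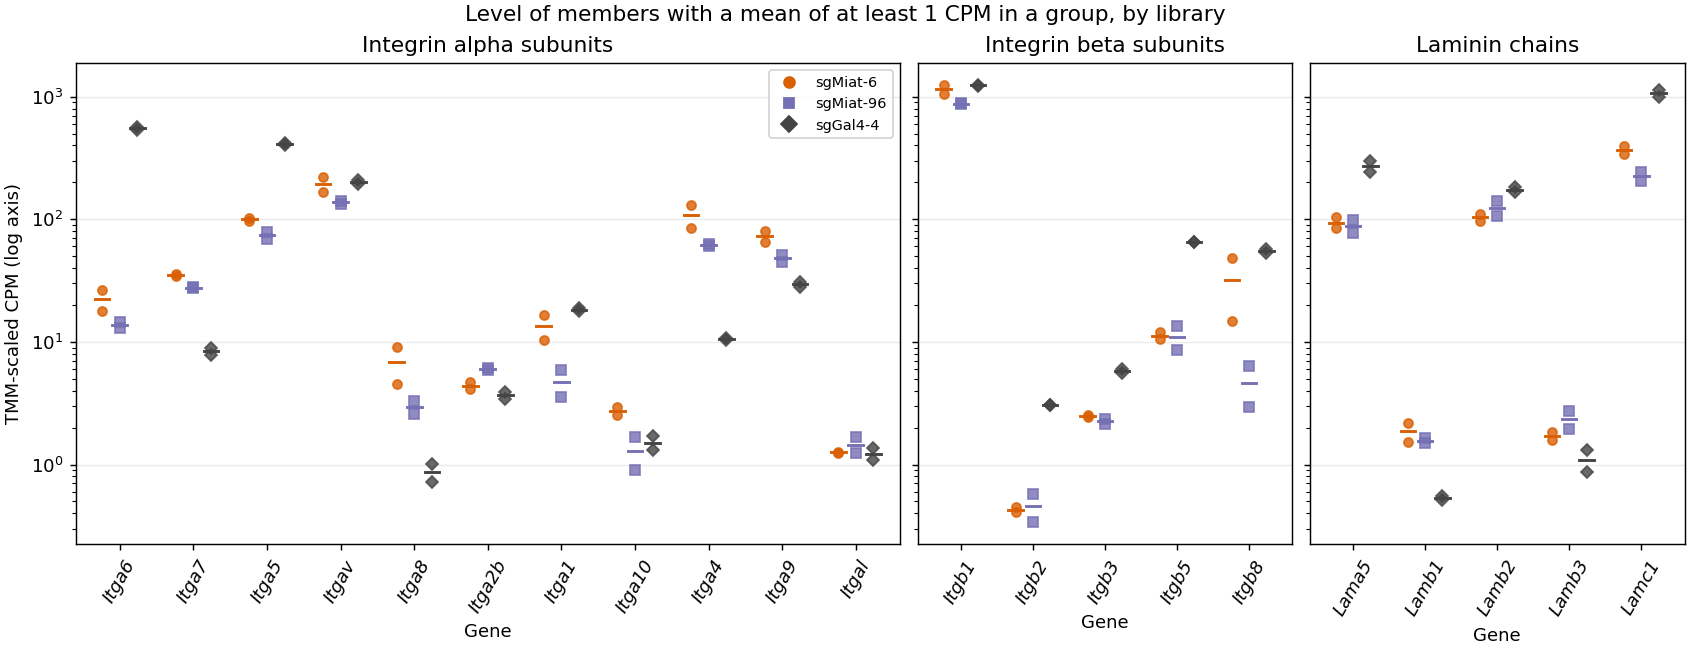
TMM-scaled CPM on a log axis for 21 members with a mean of at least 1 CPM in a group, with points for libraries and bars for the mean of 2 libraries. Itga6 stands at 22.3 CPM with sgMiat-6 and at 13.8 CPM with sgMiat-96 against 553 CPM with sgGal4-4, while Itgb1 stays between 867 and 1246 CPM in all 6 libraries.

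The start regions of 4 members that moved, Itga5, Itgb5 and Lama5, which fell, and Itga4, which rose, are shown for the comparison of their base composition. The sequences are the 250 bases before the gene start from RefSeq on GRCm38.p6, read on the strand of the gene, and 23 of the 37 members had an entry. Capitals mark the GC box, GGGCGG or its reverse complement CCGCCC.
Itga5: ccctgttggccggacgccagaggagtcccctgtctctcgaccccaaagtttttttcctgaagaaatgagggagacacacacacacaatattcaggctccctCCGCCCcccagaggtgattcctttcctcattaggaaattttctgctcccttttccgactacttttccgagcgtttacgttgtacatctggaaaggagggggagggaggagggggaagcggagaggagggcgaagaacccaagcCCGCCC
Itgb5: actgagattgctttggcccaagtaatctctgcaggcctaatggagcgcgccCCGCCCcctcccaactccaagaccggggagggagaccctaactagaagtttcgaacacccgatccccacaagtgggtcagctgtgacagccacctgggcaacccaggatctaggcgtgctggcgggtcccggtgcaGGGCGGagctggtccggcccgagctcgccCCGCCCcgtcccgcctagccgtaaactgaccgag
Lama5: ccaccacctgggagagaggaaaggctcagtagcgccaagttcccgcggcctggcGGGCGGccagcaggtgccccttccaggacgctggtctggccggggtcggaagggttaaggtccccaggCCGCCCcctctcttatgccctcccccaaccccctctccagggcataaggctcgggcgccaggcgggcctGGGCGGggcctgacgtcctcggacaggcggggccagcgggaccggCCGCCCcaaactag
Itga4: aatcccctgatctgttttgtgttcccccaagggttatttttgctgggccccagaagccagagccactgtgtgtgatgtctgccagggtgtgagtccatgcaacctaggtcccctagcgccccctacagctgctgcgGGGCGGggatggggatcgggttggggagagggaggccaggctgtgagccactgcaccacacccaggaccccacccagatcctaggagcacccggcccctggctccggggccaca
They lie at chr15:103366792-103367041 on the minus strand, chr16:33829415-33829664 on the plus strand, chr2:180225860-180226109 on the minus strand and chr2:79255176-79255425 on the plus strand. The window held 2 GC boxes in Itga5, 3 in Itgb5, 4 in Lama5 and 1 in Itga4, and 32.7% of 32851 promoter windows of this length held at least 1. The AP-1 motif TGACTCA, the CCAAT box and the TATA box TATAAA, searched on both strands, had 0 matches in these 4 windows, and 4.46%, 33.9% and 12.4% of all windows held them. A match is a description of the letters and says nothing of binding.

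Among the laminin-binding alpha subunits, Itga6 fell and Itga7 rose. Itga6 encodes the alpha chain that pairs with Itgb1 or Itgb4 and is used as a surface marker of neural stem cells. The gene lies on chromosome 2 from 71745616 to 71858416 on the plus strand of GRCm38. Itga6 was at 26.7 and 17.9 CPM with sgMiat-6 and at 13.1 and 14.5 CPM with sgMiat-96, against 569 and 537 CPM with sgGal4-4. Each Miat library was far below both controls. The log2 fold change with both guides was -4.98 ± 0.13 (SE), or 31.5-fold lower (adjusted p = 1.04e-11), and it was -4.56 ± 0.09 with the length trend removed. Itga7 encodes the alpha chain of the laminin receptor of muscle, which is also made by glial cells, and it lies on chromosome 10 from 128933818 to 128958282. Itga7 was at 35.5 and 34.7 CPM with sgMiat-6 and at 27.5 and 28.0 CPM with sgMiat-96, against 8.91 and 7.85 CPM with sgGal4-4. Every Miat library was above both controls, and the log2 fold change was 1.90 ± 0.13 (adjusted p = 5.48e-08). Itga3, the remaining laminin-binding alpha subunit, had 13 counts over the 4 Miat libraries and 0 over the controls, and it was not tested. With the control sum put at 3 counts this is 2.27-fold higher, with no allowance for counting error in the Miat sum.

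The alpha subunits that bind the Arg-Gly-Asp motif of fibronectin, vitronectin and related ligands split, with 2 called higher and 2 called lower of 4. Of all genes tested, 66.5% were called in this comparison. Itga5, the alpha chain of the classical fibronectin receptor, spans 103344286 to 103366763 of chromosome 15, on the minus strand. Itga5 was at 97.5 and 102 CPM with sgMiat-6 and at 69.1 and 79.4 CPM with sgMiat-96, against 419.6 and 401 CPM with sgGal4-4. The groups did not overlap, and the log2 fold change was -2.25 ± 0.09, or 4.77-fold lower (adjusted p = 2.83e-10). Itgav encodes the alpha chain shared by the vitronectin receptors and by the integrins that activate latent TGF-beta. Itgav was at 219 and 168 CPM with sgMiat-6 and at 132 and 142 CPM with sgMiat-96, against 208 and 193 CPM with sgGal4-4. The sgMiat-6 libraries lay on both sides of the controls and the sgMiat-96 libraries below them. Its fitted change of -0.30 ± 0.11 was called (adjusted p = 0.0257), but it was 0.22 ± 0.07 in the other direction with the length trend removed (adjusted p = 0.0121), and the call was lost without sgGal4-4 replicate 1, sgGal4-4 replicate 2 or sgMiat-96 replicate 1 (adjusted p = 0.199, 0.0514 and 0.0792), so no direction is given.

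Itga8, whose product binds nephronectin, was at 9.07 and 4.54 CPM with sgMiat-6 and at 3.32 and 2.60 CPM with sgMiat-96, against 0.721 and 1.01 CPM with sgGal4-4. All Miat libraries were higher than the controls, with a log2 fold change of 2.36 ± 0.36 (adjusted p = 7.65e-05). Itga2b, the alpha chain of the platelet fibrinogen receptor, was at 4.12 and 4.70 CPM with sgMiat-6 and at 5.90 and 6.18 CPM with sgMiat-96, against 3.45 and 3.90 CPM with sgGal4-4. The 4 Miat libraries lay above the controls by a small margin, and the log2 fold change was 0.49 ± 0.19 (adjusted p = 0.0410). That call was lost in DESeq2 (adjusted p = 0.129), with scaling by total counts (adjusted p = 0.120), and without either sgGal4-4 library, sgMiat-6 replicate 2 or either sgMiat-96 library (adjusted p = 0.0546 to adjusted p = 0.291).

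Itga4 and Itga9 encode the alpha chains that bind Vcam1, fibronectin splice forms, tenascin and osteopontin, and both rose. Itga4 lies on chromosome 2 from 79255426 to 79333123 on the plus strand, on the same chromosome as Itga6. Itga4 was at 132 and 84.2 CPM with sgMiat-6 and at 60.9 and 63.3 CPM with sgMiat-96, against 10.4 and 10.7 CPM with sgGal4-4. The Miat libraries were above the controls, and the sgMiat-6 libraries were the highest. The log2 fold change was 2.96 ± 0.18, or 7.76-fold higher (adjusted p = 1.66e-08), and 3.66 ± 0.14 with the length trend removed. Exons of Itga4 share 1124 bases with Cerkl on the opposite strand, and Cerkl had 144 and 195 counts with sgMiat-6 and 218 and 187 counts with sgMiat-96, against 4 and 9 counts with sgGal4-4. Whether reads were counted by strand is not given in the sources used here, so reads from the shared bases cannot be told apart, although Itga4 itself had 1084 to 2652 counts in the Miat libraries. Itga9 was at 79.7 and 65.5 CPM with sgMiat-6 and at 44.8 and 51.0 CPM with sgMiat-96, against 31.1 and 28.0 CPM with sgGal4-4. The groups did not overlap, and the log2 fold change was 1.00 ± 0.12 (adjusted p = 1.01e-05). Exons of Itga8, Itgav, Itga7 and Lama2 also share 372, 634, 9 and 631 bases with a transcript of the opposite strand. Those of Itga1 and Itga10 share 685 and 1739 bases with a gene model of their own strand. The counts of these members carry the same uncertainty, although the transcripts opposite to Itga8 and Itga7 had at most 8 counts in a library.

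Of the 4 collagen-binding alpha subunits, Itga1 fell, Itga10 did not pass the test and Itga2 and Itga11 were not tested. Itga1, the alpha chain of a collagen IV receptor, was at 16.6 and 10.4 CPM with sgMiat-6 and at 3.54 and 5.89 CPM with sgMiat-96, against 17.7 and 18.9 CPM with sgGal4-4. Every Miat library was below the controls, though sgMiat-6 replicate 1 came close to them. The log2 fold change with both guides was -1.20 ± 0.20 (adjusted p = 0.000162), while that with sgMiat-6 alone was -0.44 ± 0.23 (adjusted p = 0.122). Itga10, a receptor subunit known from cartilage, was at 2.93 and 2.55 CPM with sgMiat-6 and at 0.899 and 1.67 CPM with sgMiat-96, against 1.70 and 1.32 CPM with sgGal4-4, and the groups overlapped (adjusted p = 0.402).

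The 5 alpha subunits known from leukocytes were near the limit of detection. Itgal, the alpha chain of LFA-1, was at 1.24 and 1.28 CPM with sgMiat-6 and at 1.24 and 1.67 CPM with sgMiat-96, against 1.08 and 1.37 CPM with sgGal4-4. These ranges overlapped, and no difference was detectable at this depth (adjusted p = 0.715). Itgae, the partner of Itgb7 on intraepithelial lymphocytes, had 6 and 1 counts with sgMiat-6 and 9 and 4 counts with sgMiat-96, against 15 and 11 counts with sgGal4-4. It passed the test with sgMiat-6 alone (adjusted p = 0.0466) and not with both guides (adjusted p = 0.0550). It passed the filter on low counts only through the sgGal4-4 libraries, so its call is not used as support. Itgad, Itgam and Itgax had at most 8 counts in a library.

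Per kilobase of transcript, which makes genes comparable, the alpha-subunit RNA of control cells was mostly Itga6 and Itga5, and that of Miat cells was mostly Itgav and Itga5. The summed level of the 18 alpha subunits was 89.7 ± 11.7 CPM per kb with sgMiat-6 and 62.6 ± 4.13 CPM per kb with sgMiat-96, against 227 ± 8.55 CPM per kb with sgGal4-4 (SD, n = 2 each). Itga6 made up 4.09% ± 0.628 of this sum with sgMiat-6 and 3.66% ± 0.0191 with sgMiat-96, against 40.5% ± 0.0946 with sgGal4-4. Itga4 made up 12.1% ± 2.22 with sgMiat-6 and 10.1% ± 0.394 with sgMiat-96, against 0.474% ± 0.0269 with sgGal4-4. Shares of the other leading subunits moved as well. Itgav held 30.5% with sgMiat-6 and 31.0% with sgMiat-96, against 12.5% with sgGal4-4, and Itga5 held 25.7% and 27.1% with sgMiat-6 and sgMiat-96, against 41.4% with sgGal4-4. The mean level of Itgav per kb, which still holds the length trend, was not higher with either guide. It was 27.5 ± 5.11 CPM per kb with sgMiat-6 and 19.4 ± 1.01 CPM per kb with sgMiat-96, against 28.4 ± 1.56 CPM per kb with sgGal4-4. With the length trend removed, the log2 fold change of Itgav with both guides was 0.22 ± 0.07, so no direction is given. The ratio of Itga6 to Itga5 per kb was 0.163 ± 0.0507 with sgMiat-6 and 0.135 ± 0.00361 with sgMiat-96, against 0.978 ± 0.00769 with sgGal4-4.

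**Figure D2:**
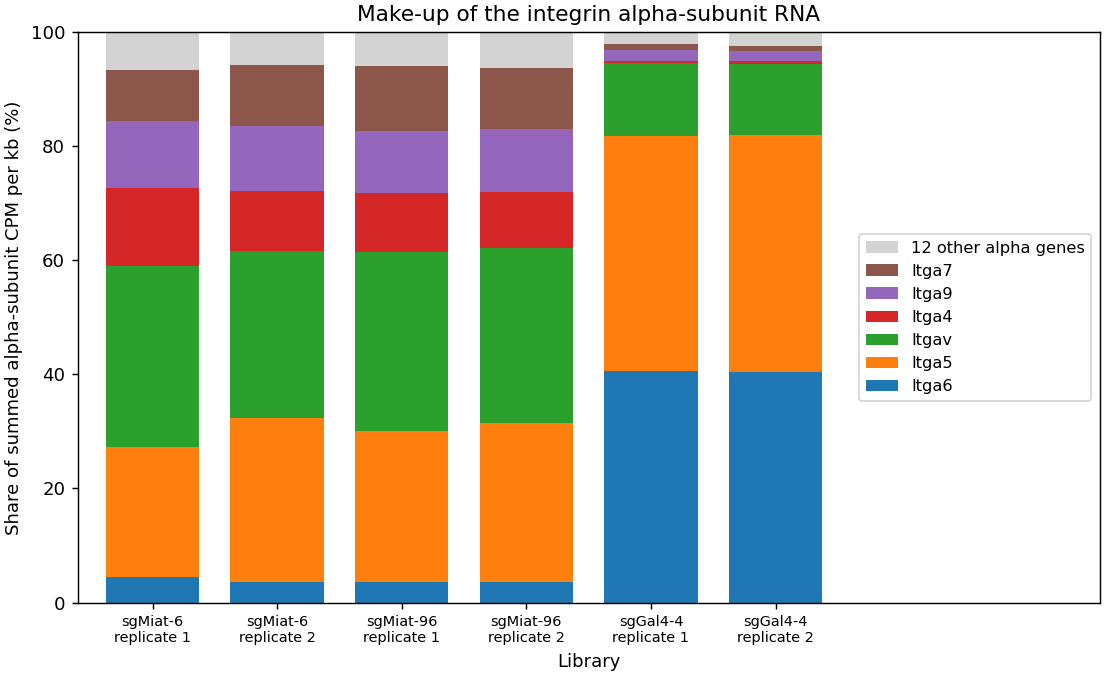
Share of the summed alpha-subunit level (CPM per kb, in percent) held by each of 6 alpha subunits and by the 12 others together, with 1 bar per library. Itga6 takes about as much as Itga5 in both sgGal4-4 libraries (40.5% and 41.4% on average) and under 5% in each of the 4 Miat libraries, where Itga4, Itga9 and Itga7 take 9.02% to 13.7% each.

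Of the 6 beta subunits tested, 0 rose and 5 fell with both Miat guides in edgeR's test. In this comparison 66.5% of all genes tested were called, 33.1% higher and 33.4% lower. The dominant beta subunit, Itgb1, moved the least of the 5 that fell. Itgb1 encodes the chain shared by most matrix-binding integrins, among them those of Itga4, Itga5, Itga6 and Itga7, and it lies on chromosome 8 from 128685654 to 128733200. Itgb1 was at 1246 and 1058 CPM with sgMiat-6 and at 867 and 885 CPM with sgMiat-96, against 1229 and 1239 CPM with sgGal4-4. The sgMiat-96 libraries were below the controls and the sgMiat-6 libraries on both sides of them. The fitted change with both guides was -0.30 ± 0.09 (adjusted p = 0.0114), but it was -0.09 ± 0.06 with the length trend removed (adjusted p = 0.207), and the call was lost without either control library (adjusted p = 0.0920 and 0.106). With sgMiat-96 alone it was -0.49 ± 0.11 (adjusted p = 0.00112), and -0.19 ± 0.07 with the length trend removed (adjusted p = 0.0310). Per kb, Itgb1 made up 95.2% ± 1.89 of the beta-subunit sum with sgMiat-6 and 97.4% ± 0.825 with sgMiat-96, against 88.0% ± 0.273 with sgGal4-4.

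The other beta subunits that were called lay clearly lower with both guides, apart from Itgb8. Itgb5, which pairs with Itgav in a vitronectin receptor, lies on chromosome 16 from 33829665 to 33949338. Itgb5 was at 10.5 and 11.99 CPM with sgMiat-6 and at 8.54 and 13.5 CPM with sgMiat-96, against 65.3 and 65.8 CPM with sgGal4-4. No Miat library came near the controls, and the log2 fold change was -2.56 ± 0.14, or 5.89-fold lower (adjusted p = 8.58e-09). Itgb8, which pairs with Itgav in the integrin that activates latent TGF-beta in the brain, was at 48.5 and 14.9 CPM with sgMiat-6 and at 2.92 and 6.35 CPM with sgMiat-96, against 56.7 and 52.7 CPM with sgGal4-4. Each Miat library was below the controls, but the sgMiat-6 libraries stood far apart from each other. The log2 fold change was -2.17 ± 0.33 with both guides (adjusted p = 7.33e-05), -0.79 ± 0.37 with sgMiat-6 (adjusted p = 0.0928) and -3.56 ± 0.45 with sgMiat-96 (adjusted p = 1.40e-05). Without sgMiat-6 replicate 1 the change with sgMiat-6 was -1.87 ± 0.26 (adjusted p = 0.000174), and it also passed without either control library (adjusted p = 0.0221 and 0.00644) and with the replicate number as a block (adjusted p = 0.0454).

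Itgb3, the beta chain that pairs with Itgav and Itga2b, was at 2.53 and 2.45 CPM with sgMiat-6 and at 2.36 and 2.14 CPM with sgMiat-96, against 5.98 and 5.62 CPM with sgGal4-4. The Miat libraries were all lower, with a log2 fold change of -1.29 ± 0.20 (adjusted p = 8.30e-05). Itgb2, the beta chain of leukocyte integrins, was at 0.446 and 0.408 CPM with sgMiat-6 and at 0.337 and 0.577 CPM with sgMiat-96, against 3.04 CPM in both sgGal4-4 libraries. It rests on 6 to 10 counts in each Miat library, against 59 and 60 counts in the controls, and the log2 fold change was -2.77 ± 0.32 (adjusted p = 7.07e-06). Itgb2 passed the filter on low counts through the sgGal4-4 libraries, where it was high, so its call is not used as support. Of its alpha partners, Itgal was at 1.08 to 1.67 CPM as given above, and Itgam, Itgax and Itgad were at most at 0.412 CPM in any library. Itgb4, the partner of Itga6 in epithelial hemidesmosomes, had 6 to 12 counts in the Miat libraries and 12 and 23 counts in the controls and did not pass the test (adjusted p = 0.136). Itgb7 had at most 4 counts in a library, and Itgb6 had 0 in all 6.

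**Figure D3:**
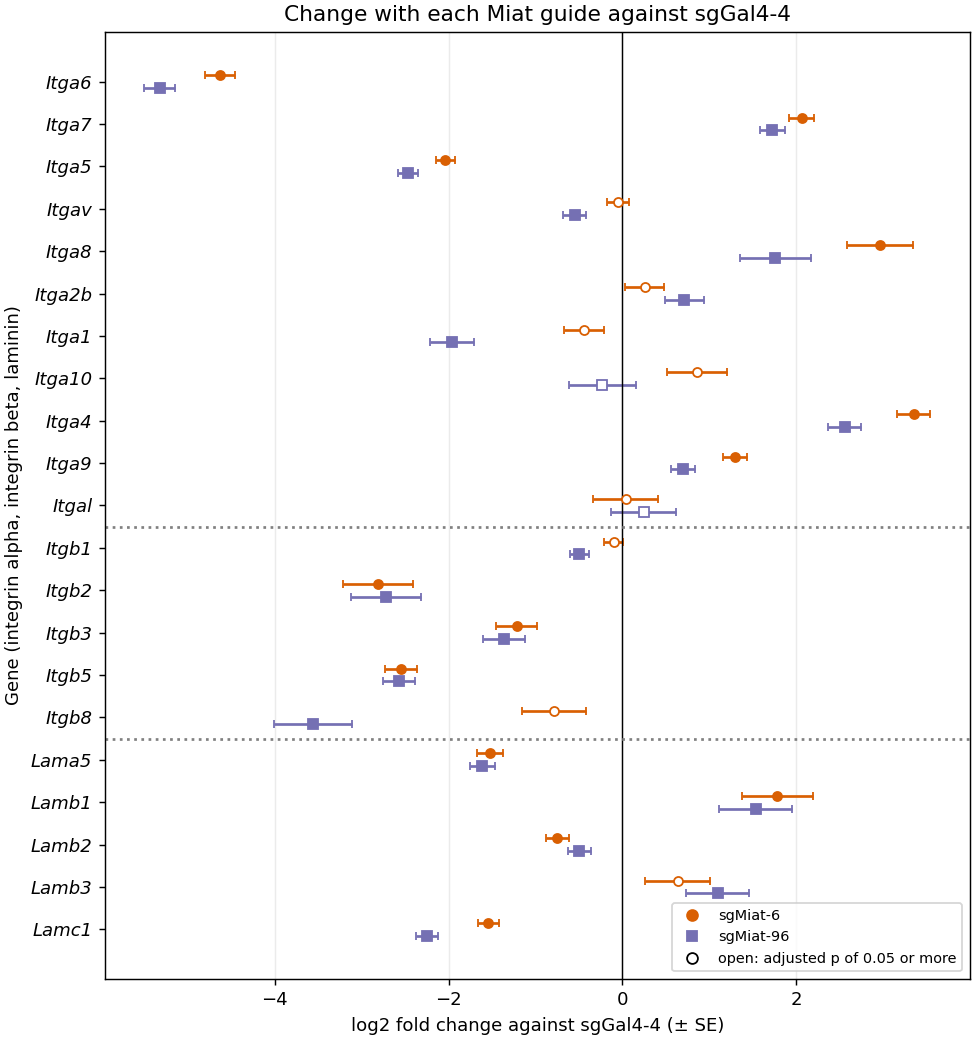
Log2 fold change (± SE) of 21 members of at least 1 CPM with sgMiat-6 (circles) and with sgMiat-96 (squares) against sgGal4-4, with open symbols for an adjusted p of 0.05 or more. Of the members drawn, Itga6 lies farthest to the left with both guides (-4.63 and -5.32).

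Lamc1, the gamma chain of most laminins, fell. The gene spans 153218922 to 153332786 of chromosome 1, on the minus strand. Lamc1 was at 392 and 341 CPM with sgMiat-6 and at 206 and 243 CPM with sgMiat-96, against 1137 and 996 CPM with sgGal4-4. All Miat libraries were below the controls, and the sgMiat-96 libraries were the lowest. The log2 fold change was -1.89 ± 0.10, or 3.72-fold lower (adjusted p = 4.31e-09), and -1.32 ± 0.06 with the length trend removed. Lamc3 had at most 3 counts in a library and was not tested.

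Of the laminin alpha chains, Lama5 made up nearly all of the RNA and fell. Lama5, the alpha chain of laminins widespread in adult basement membranes, lies on chromosome 2 from 180176373 to 180225859. Lama5 was at 84.5 and 104 CPM with sgMiat-6 and at 77.8 and 98.9 CPM with sgMiat-96, against 297 and 243 CPM with sgGal4-4. The groups did not overlap, and the log2 fold change was -1.57 ± 0.12 (adjusted p = 1.49e-07). It was -0.77 ± 0.11 with the length trend removed, where the deposited row of Lama5 is 11388 bases long. Lama2, the alpha chain of muscle and brain vessel laminin, had 14 and 6 counts with sgMiat-6 and 14 and 9 counts with sgMiat-96, against 0 in both controls. It was 7.49-fold higher with the control sum put at 3 counts and no allowance for error in the Miat sum, but the most it reached was 0.787 CPM. Lama1, the alpha chain of early embryonic laminin, had 19 counts over the Miat libraries and 0 over the controls, and it was not tested. On the same basis this is 3.31-fold higher. Lama3 had 4 counts, all in sgGal4-4 replicate 2, and Lama4 had 3 to 13 counts in each library.

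The laminin beta chains went both ways. Lamb2, the beta chain of synaptic and vascular laminins, lies on chromosome 9 from 108479736 to 108490530. Lamb2 was at 97.4 and 111 CPM with sgMiat-6 and at 107 and 141 CPM with sgMiat-96, against 183 and 167 CPM with sgGal4-4. All Miat libraries were below the controls, and the log2 fold change was -0.62 ± 0.11 (adjusted p = 0.000325). With the length trend removed it was -0.24 ± 0.10 with both guides (adjusted p = 0.0493), and 0.04 ± 0.12 with sgMiat-96 alone, where the main value was -0.50 ± 0.13. Without sgMiat-96 replicate 1 the change with sgMiat-96 was -0.30 ± 0.13 and was not called (adjusted p = 0.0711). Lamb1, the beta chain of the most common laminins, was at 1.54 and 2.19 CPM with sgMiat-6 and at 1.63 and 1.50 CPM with sgMiat-96, against 0.515 and 0.557 CPM with sgGal4-4. The Miat libraries were all higher, at a low level, with a log2 fold change of 1.66 ± 0.37 (adjusted p = 0.00153). Lamb3, the beta chain of the laminin of skin, was at 1.83 and 1.58 CPM with sgMiat-6 and at 2.75 and 1.96 CPM with sgMiat-96, against 0.876 and 1.32 CPM with sgGal4-4. Its change of 0.87 ± 0.33 was called (adjusted p = 0.0308), and the call was lost in DESeq2 (adjusted p = 0.104), with scaling by total counts (adjusted p = 0.0593), and without either sgGal4-4 library, sgMiat-6 replicate 1 or sgMiat-96 replicate 1 (adjusted p = 0.0539 to adjusted p = 0.302).

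Set side by side per kilobase, both the receptor subunits and the laminin chains were lower in sum in the Miat cells, and the laminin chains more so. The sums and their ratios still hold the trend over transcript length and were not recomputed without it. With that trend removed, the median log2 fold changes with both guides were close, at -0.23 for receptor subunits and -0.24 for laminin chains. The 26 receptor subunits summed to 379 ± 50.7 CPM per kb with sgMiat-6 and 277 ± 9.17 CPM per kb with sgMiat-96, against 561 ± 7.55 CPM per kb with sgGal4-4 (SD, n = 2 each). The 11 laminin chains summed to 75.8 ± 1.87 CPM per kb with sgMiat-6 and 60.3 ± 8.88 CPM per kb with sgMiat-96, against 196 ± 18.3 CPM per kb with sgGal4-4. Laminin RNA over receptor RNA was 0.186 and 0.217 in the sgMiat-6 libraries and 0.200 and 0.235 in the sgMiat-96 libraries, against 0.368 and 0.329 in the sgGal4-4 libraries. All 4 Miat libraries were lower in this ratio than the controls. An exact permutation test of 4 against 2 libraries cannot go below a two-sided p of 0.133, which each of these 3 values reached, so they are given as descriptions.

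Within the receptors, the beta sum was 289 ± 39.0 CPM per kb with sgMiat-6 and 214 ± 5.04 CPM per kb with sgMiat-96, against 334 ± 0.999 CPM per kb with sgGal4-4. Beta over alpha was 3.22 ± 0.0148 with sgMiat-6 and 3.43 ± 0.146 with sgMiat-96, against 1.47 ± 0.0600 with sgGal4-4, so beta-subunit RNA, nearly all of it Itgb1, exceeded alpha-subunit RNA by more in the Miat cells. Within the laminins, gamma RNA exceeded beta RNA in all 6 libraries. Gamma over beta was 2.52 ± 0.471 with sgMiat-6 and 1.29 ± 0.0866 with sgMiat-96, against 4.46 ± 0.144 with sgGal4-4. The alpha sum was the lowest of the laminin types in every group, at 8.37 ± 1.15 CPM per kb with sgMiat-6 and 7.96 ± 1.26 CPM per kb with sgMiat-96, against 23.8 ± 3.34 CPM per kb with sgGal4-4.

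**Figure D4:**
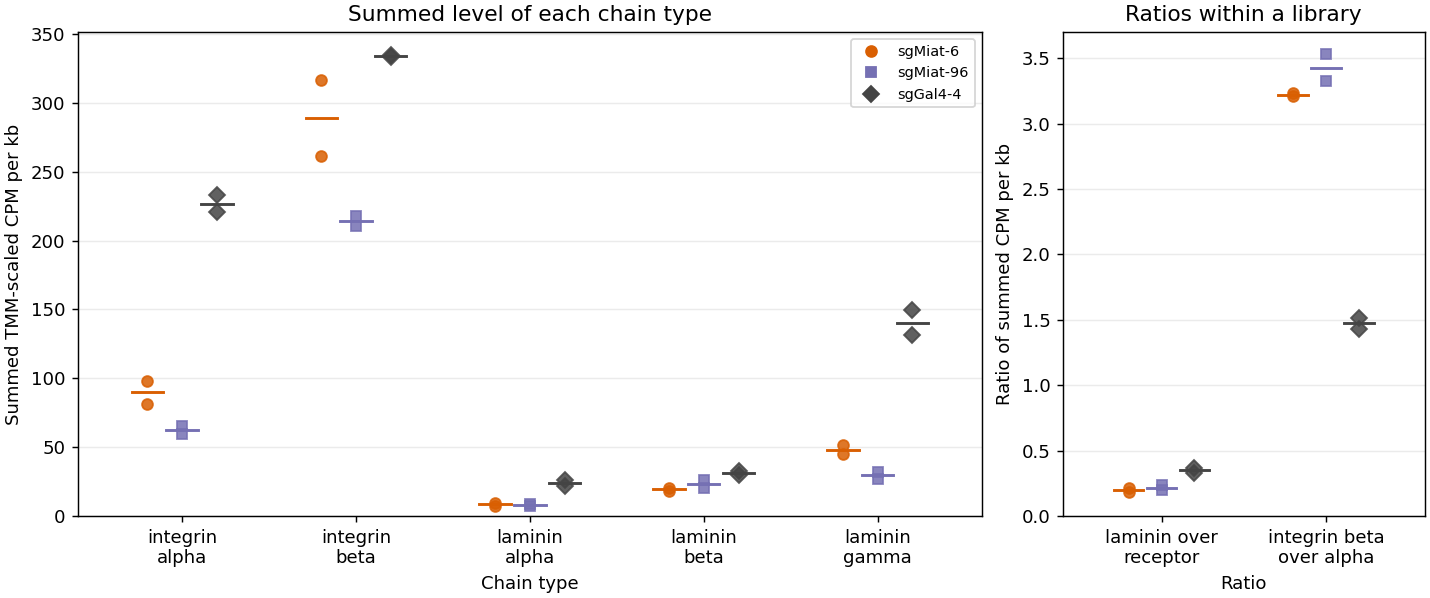
Left, summed TMM-scaled CPM per kb of each chain type by library; right, 2 ratios of such sums within a library, with points for libraries and bars for the mean of 2. Integrin alpha and laminin gamma sums are lower in all Miat libraries, and beta over alpha is 3.21 to 3.53 in them against 1.43 and 1.52 in the sgGal4-4 libraries.

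Each guide on its own gave the same direction for the members that moved most. With sgMiat-6 against sgGal4-4, 6 members rose and 10 fell of 25 tested, where 53.0% of all genes were called, 26.9% higher and 26.1% lower. With sgMiat-96 against sgGal4-4, 8 rose and 13 fell, where 68.2% of all genes were called, 34.0% higher and 34.2% lower. These comparisons share the control libraries. Itga6 had a log2 fold change of -4.63 ± 0.17 with sgMiat-6 and -5.32 ± 0.18 with sgMiat-96, and Itga4 had 3.35 ± 0.19 with sgMiat-6 and 2.56 ± 0.19 with sgMiat-96. With the length trend removed, the sgMiat-96 values were -4.72 ± 0.12 for Itga6 and 3.55 ± 0.15 for Itga4. For Itgb5 the values were -2.55 ± 0.18 with sgMiat-6 and -2.57 ± 0.18 with sgMiat-96.

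Between the Miat guides, sgMiat-96 cells held less of 11 members and more of 0 than sgMiat-6 cells in edgeR's test, where 36.7% of all genes were called, 17.8% higher and 18.8% lower. Receptor subunits made up 10 of the 11, of 18 tested, and Lamc1 was the only laminin chain of 7 tested. The largest difference was that of Itgb8, at 2.92 and 6.35 CPM with sgMiat-96 against 48.5 and 14.9 CPM with sgMiat-6, with a log2 fold change of -2.78 ± 0.45 (adjusted p = 0.00122). Without sgMiat-96 replicate 1 it was -2.32 ± 0.62 (adjusted p = 0.0517). Itga1 followed with -1.52 ± 0.26 (adjusted p = 0.00148), then Itga8 with -1.20 ± 0.32, Itga10 with -1.09 ± 0.36 and Itga4 with -0.80 ± 0.17. The sgMiat-96 libraries also hold the shorter transcripts, as given above. With the length trend removed, 3 members were called lower and 2 higher in sgMiat-96 cells. The 3 were Itga1 at -1.15 ± 0.22, Itgb8 at -2.72 ± 0.46 and Lamc1 at -0.26 ± 0.07, and the 2 were Lama5 at 0.48 ± 0.14 and Lamb2 at 0.57 ± 0.12. The count of members called lower was 2 (Itga1 and Lamc1) without sgMiat-96 replicate 1 and 6 without sgMiat-6 replicate 1, when 1124 and 2253 genes in all were called, against 4850 with all libraries.

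**Figure D5:**
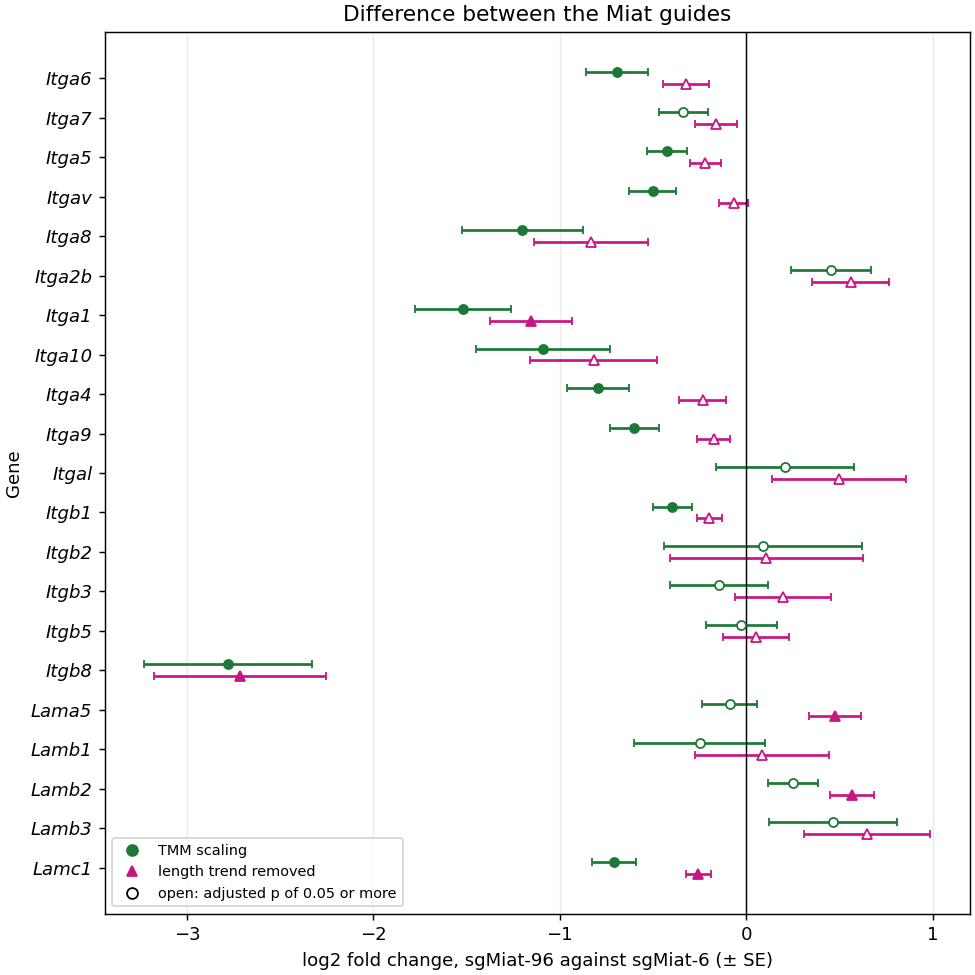
Log2 fold change (± SE) of 21 members of at least 1 CPM in sgMiat-96 against sgMiat-6 libraries, with TMM scaling (circles) and without the length trend (triangles), open where the adjusted p was 0.05 or more. Itgb8 stays at -2.78 and -2.72, while Itga4 moves to -0.23 when the trend is removed, against -0.80.

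Proteins that act inside the cell with integrins were followed through a list of focal adhesion genes, of which 7 rose and 17 fell of 34 tested with both guides (70.6% called, against 66.5% of all genes, 33.1% higher and 33.4% lower), with a median of -0.24 against 0.00 for all genes. Of those named by the smallest adjusted p, Tns1, which encodes the actin-binding adaptor tensin, fell farthest. Tns1 was at 4.46 and 5.67 CPM with sgMiat-6 and at 2.19 and 3.75 CPM with sgMiat-96, against 136 and 113 CPM with sgGal4-4. The Miat libraries were far lower, with a log2 fold change of -5.00 ± 0.15 (adjusted p = 3.76e-11), a size close to that of Itga6. Actn1, the actin crosslinker alpha-actinin, had -1.95 ± 0.10, and Rap1a, a small GTPase that activates integrins, had -0.84 ± 0.09. Src, the tyrosine kinase recruited to focal adhesions, rose with 1.79 ± 0.13, as did Itgb1bp1, an inhibitor of Itgb1 activation, with 0.98 ± 0.13, and the scaffold gene Git1, with 0.41 ± 0.09.

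Tetraspanins that bind integrins in the membrane rose in 5 of 6 tested genes, where 33.1% of all genes rose, and Cd9 fell. Their median was 0.96, against 0.00 for all genes. The rows of the tetraspanins named here are short, at 984 to 1904 bases, against a median of 2843.5 for all genes tested. Medians of this and the other lists of partners were not recomputed with the length trend removed. Cd151, which binds the product of Itga6 directly, was at 247 and 266 CPM with sgMiat-6 and at 369.6 and 304 CPM with sgMiat-96, against 140.4 and 138 CPM with sgGal4-4. The Miat libraries were all higher, so Cd151 moved the opposite way to Itga6, with a log2 fold change of 1.08 ± 0.10 (adjusted p = 1.15e-06). Cd63 had 1.47 ± 0.12, Tspan4 had 0.84 ± 0.11 and Cd9 had -0.64 ± 0.10.

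Of the other basement membrane proteins, 2 rose and 5 fell of 8 tested, where 66.5% of all genes were called, with a median of -1.33 against 0.00 for all genes. The collagen IV chains Col4a1 and Col4a2, which build the network that laminin is tied to, had log2 fold changes of -1.78 ± 0.12 and -1.90 ± 0.14. Nid2, a nidogen that links laminin to collagen IV, was at 5.26 and 4.90 CPM with sgMiat-6 and at 4.89 and 4.73 CPM with sgMiat-96, against 24.8 and 22.0 CPM with sgGal4-4. These groups lay far apart, at -2.24 ± 0.14 (adjusted p = 2.06e-08). Ntn4, a netrin that binds laminin gamma chains, had 0.72 ± 0.19 with both guides (adjusted p = 0.00427), but the libraries overlapped. Its change was 1.16 ± 0.21 with sgMiat-6 and 0.28 ± 0.22 with sgMiat-96, and the latter was not called (adjusted p = 0.260).

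Laminin receptors that are not integrins, with the enzymes that glycosylate dystroglycan, went both ways, with 7 that rose and 5 that fell of 16 tested. That is 12 called, where 66.5% of all genes were called, and the median was -0.19 against 0.00. Dag1, which encodes dystroglycan, was at 557 and 463 CPM with sgMiat-6 and at 376 and 463 CPM with sgMiat-96, against 849 and 794 CPM with sgGal4-4. All Miat libraries were lower, by less than Itga6 was, at -0.83 ± 0.11 (adjusted p = 1.56e-05). The syndecan Sdc4 had -0.95 ± 0.09 and Sdc3 had -0.84 ± 0.10, whereas Sdc1 had 0.57 ± 0.09. Rpsa, a ribosomal protein also described as a laminin receptor, had 0.46 ± 0.12 with both guides, but the libraries overlapped. Its change was 0.75 ± 0.13 with sgMiat-96 and 0.16 ± 0.13 with sgMiat-6, and the latter was not called (adjusted p = 0.309).

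Among other integrin ligands, 7 rose and 10 fell of 18 tested, where 66.5% of all genes were called, with a median of -0.79 against 0.00 for all genes. Npnt, the nephronectin bound by the product of Itga8, was at 62.6 and 51.4 CPM with sgMiat-6 and at 29.3 and 33.6 CPM with sgMiat-96, against 22.2 and 20.6 CPM with sgGal4-4. The groups did not overlap, and the order of the groups was the same as for Itga8, with a log2 fold change of 0.99 ± 0.13 (adjusted p = 1.52e-05). Thbs1, a thrombospondin, had 3.36 ± 0.30 and Adam15, a membrane protease, had 1.24 ± 0.10. Tnc, the tenascin bound by the product of Itga9, was at 1507 and 1490 CPM with sgMiat-6 and at 633 and 795 CPM with sgMiat-96, against 2762 and 2423 CPM with sgGal4-4. The Miat libraries were all lower, at -1.33 ± 0.10 (adjusted p = 1.60e-07), while its receptor subunit Itga9 was higher. Tgfb3, whose latent form binds integrins that contain Itgav, had -1.54 ± 0.12, and Icam5, a neuronal ligand of the integrin of Itgal and Itgb2, had -2.92 ± 0.19.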

How the data were processed

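Per the submitters' processing notes, STAR was used with the build GRCm38 (mm10). Its version, the counter and the annotation are not stated in the sources used here. The deposited files hold a whole-number count, an FPKM and a TPM per RefSeq transcript, per the file headers. The deposited FPKM served to recover transcript lengths (whole to within 0.001 bases in 100% of rows) and true zeros, and the TPM was not used. A count of 1 stands beside an FPKM of 0 in 11223 rows of sgMiat-96 replicate 2, and it was set to 0, which departs from the deposited counts. Of 33984 rows for 24063 symbols, the row with the highest total count per symbol was kept. Isoform rows share reads and were not added, and 9 members have more than 1 row.

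Tests ran in R 4.3.3 with edgeR 4.0.16, which calls limma 3.58.1. Genes were filtered with filterByExpr, scaled by TMM and fitted over the 3 groups at once, which left 3 residual degrees of freedom. The biological coefficient of variation was 0.0986. The contrasts set the mean of the Miat guides, and then each guide, against the control, and the guides against each other. P-values were adjusted by Benjamini-Hochberg over 13220 genes. The standard error is the fold change divided by the square root of F. Bounds on a fold put a sum of 0 at 3 counts over the group and take the other sum as counted, without its own error. Floors cover counting error only, and 3 counts in a library correspond to 0.149 to 0.173 CPM. The chi-square per gene between replicates, where sampling noise alone gives 1, was 19.1 for sgMiat-6, 14.0 for sgMiat-96 and 4.12 for sgGal4-4. A loess offset per library (span 0.3) removed the trend over transcript length. DESeq2 1.42.0 was an alternative, among 14 tried. The tests were tried on simulated data.

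Members with a mean of at least 1 CPM in a group are given by library (16 receptor subunits and 5 laminin chains), and 15 others by counts and ranges. Of each list of partners, up to 3 called genes per direction with the smallest adjusted p and a mean of at least 2 CPM over the 6 libraries are named. The values of 2 genes that these rules name are not reported here. The members, lists and tests were chosen with earlier results of these data known. Gene coordinates come from GENCODE M21 on GRCm38. Tables and plots were made in Python 3.11.15 (pandas 2.3.3, matplotlib 3.10.9).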

Additional observations from a re-analysis of the deposited data

Results flagged for a closer look

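The effects of the guides on 11 members differed by a test of the difference itself, the contrast of sgMiat-96 against sgMiat-6 in edgeR's quasi-likelihood test. In the same contrast 36.7% of all genes tested were called, 17.8% higher and 18.8% lower. The log2 fold change was -2.78 for Itgb8, -1.52 for Itga1, -1.20 for Itga8, -1.09 for Itga10, -0.80 for Itga4, -0.71 for Lamc1, -0.69 for Itga6, -0.60 for Itga9, -0.50 for Itgav, -0.43 for Itga5 and -0.40 for Itgb1. All 11 were lower in the sgMiat-96 libraries, which also had the lower length values, 2115 and 2293 bases against 2722 and 2530 bases with sgMiat-6. With the length trend removed, Itgb8, Itga1 and Lamc1 stayed called and lower. Lama5 and Lamb2 were then called higher in the sgMiat-96 libraries, at 0.48 ± 0.14 and 0.57 ± 0.12.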

How the results depend on the processing

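Over 14 alternatives, 1393 of the recomputed log2 fold changes of members and named genes kept their direction and their side of the threshold, 52 kept their direction and lost the call, 9 gained it and 16 changed sign. Scaling by RLE size factors, counts as listed, the longest transcript row and no filter on low counts each left all 105 values the same. Partner genes were named for a small adjusted p in the main fit, which favours that they keep their call. Receptor subunits called with both guides against sgGal4-4 were 4 to 6 higher and 7 to 10 lower in all 14, and laminin chains 2 to 4 higher and 4 lower. Between the Miat guides, the calls were 2 higher and 3 lower with the length trend removed, and 2 to 12 lower when each library was left out in turn. With the length trend removed the log2 fold change of Itgav turned to 0.22 with both guides, 0.26 with sgMiat-6 and 0.19 with sgMiat-96 against sgGal4-4. It turned to 0.22 for Itga10 and 0.040 for Lamb2 with sgMiat-96, to 0.010 for Itgb1 with sgMiat-6, and to 0.48 for Lama5 between the Miat guides. With total counts scaling, Itgal with sgMiat-6 turned to -0.017. Leaving out 1 library gave ranges across 0 for Itga10 with sgMiat-96 (-0.74 to 0.15), for Itgal with both guides (-0.016 to 0.32) and with sgMiat-6 (-0.12 to 0.22), for Itgav and Itgb1 with sgMiat-6 (-0.25 to 0.12 and -0.22 to 0.0075), and for Lama5 between the Miat guides (-0.28 to 0.071). The cause was not tested. Replicate numbers did not pair the libraries, with correlations of replicate deviations of 0.01, -0.09 and -0.21 between groups. With the replicate number as a block, 4 receptor subunits rose and 9 fell with both guides, Itga2b and Lamb3 lost their calls (adjusted p = 0.0619 and 0.0526), and Itga10 lost it between the Miat guides (adjusted p = 0.0522). Members under 1 CPM rest on few counts, and differences among them were mostly not detectable at this depth.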

Other observations

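Itga9 is listed with a long row of 7001 bases and a short row of 5180 bases that share reads. The counts of the short row were 70.8% and 79.8% of those of the long row with sgMiat-6 and 92.5% and 91.7% with sgMiat-96, against 69.7% and 69.6% with sgGal4-4. The sgMiat-96 libraries stood above the others in this share. The long row gave the values of Itga9 above. By these shares the short row fell less from sgMiat-6 to sgMiat-96 than the long row. No refit used the short row, so how far the changes of Itga9 depend on the row was not tested.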
